A study of Mus musculus with 38 samples.

Results

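Huntingtin (HTT) carries a run of glutamines near its N-terminus, encoded by CAG repeats, and Huntington's disease is caused by its expansion. The comparison described here sets the 79Q arrays against the 18Q arrays, that is, an expanded against a normal repeat in the same huntingtin fragment, and asks which hypothalamic genes differed with the length of the repeat. Its members were chosen by label: 13 of the 38 arrays of the series, 8 labelled 79Q and 5 labelled 18Q, each from a different mouse. Both groups were female FVB/N mice that received a recombinant AAV vector of serotype 5 in the hypothalamus on both sides at 8 weeks of age and were examined 4 weeks later, at 12 weeks. Both vectors held an N-terminal fragment of human HTT of 853 amino acids under the human Synapsin-1 promoter, which acts in neurons, and differed in the repeat, with 18 CAG in one and 79 in the other. The 5 WT control mice of the same experiment were uninjected littermates, and no group received a vector without HTT, so that the effect of the vector and that of the fragment cannot be told apart against WT. The 79Q and 18Q mice shared the injection, the vector type and the fragment, but each group received its own vector preparation, and the titres that the study's methods give differ slightly. Repeat length and preparation thus cannot be told apart. No value used here measures the transcript of either vector, so how much fragment each mouse made is not known.

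The hypothalamus holds small groups of neurons that control feeding, body temperature, sleep, water balance and the pituitary. They are told apart by the messengers they make, such as orexin (Hcrt), histamine (Hdc) or dopamine (Th), so that a change in a few neurons can be read from a handful of transcripts. In tissue RNA, fewer cells of a kind and less RNA per cell cannot be told apart. Neuronal genes were high on the arrays of all groups. Snap25 lay between 13.01 and 13.16 on the log2 scale in 18Q, Rbfox3 between 10.50 and 10.65, and the hypothalamic factor Nkx2-1 between 9.23 and 9.56. Their differences between 79Q and 18Q were -0.0055, 0.047 and 0.039. Other hypothalamic genes, given below, lay further from 0, with Hcrt and Pmch below it and Avp and Oxt above it. Nkx2-1 thus does not show that the groups held equal shares of hypothalamic tissue.

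Values are log2 intensities, so that a difference of -1 is a halving. Each probe set was tested with limma over the 18 AAV arrays, and a difference below 0 means that 79Q was lower. No probe set of 34760 passed an adjusted p of 0.05 (0%), and the lowest adjusted p was 0.256. At an unadjusted p under 0.05 (4.24% of probe sets) stood 552 probe sets that were higher and 923 that were lower in 79Q. Among the 19937 genes with a probe set of their own, 776 were at that p (3.89%), 263 of them higher (1.32%) and 513 lower (2.57%), and the median difference of all genes was -0.0070. By chance a share of about 0.05 would be at that p, and neither the 4.24% nor the 3.89% exceeds it. With each array centred on its own median, which moved that median to 0.0046, 433 genes were higher and 336 lower, so that the excess of lower genes turned with the scaling. Every single gene named below is therefore a candidate, described by its size, its spread and its unadjusted p. Of the named genes, Olfr948 had an adjusted p of 0.256 and Cd1d1 of 0.881, and all others lay close to 1 by limma with Benjamini-Hochberg adjustment. The groups did not overlap for 21 genes (0.105%), 12 lower and 9 higher in 79Q, and for 0.0834% of probe sets. A full separation in a given direction is 1 of the 1287 splits of 13 arrays, so that these shares too are no more than chance gives. In 88.4% of genes the whole 95% interval of the difference lay within 0.25 log2 units of 0, in 98.9% within 0.5, and it reached 1 or beyond in 19 genes. The first principal component of the 13 injected arrays held 16.8% of the variance, with a mean score for 18Q of 0.76 ± 13.5 (SD, n = 5) and for 79Q of -0.48 ± 15.2 (SD, n = 8; exact permutation test, two-sided, p = 0.894).

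**Figure D1:**
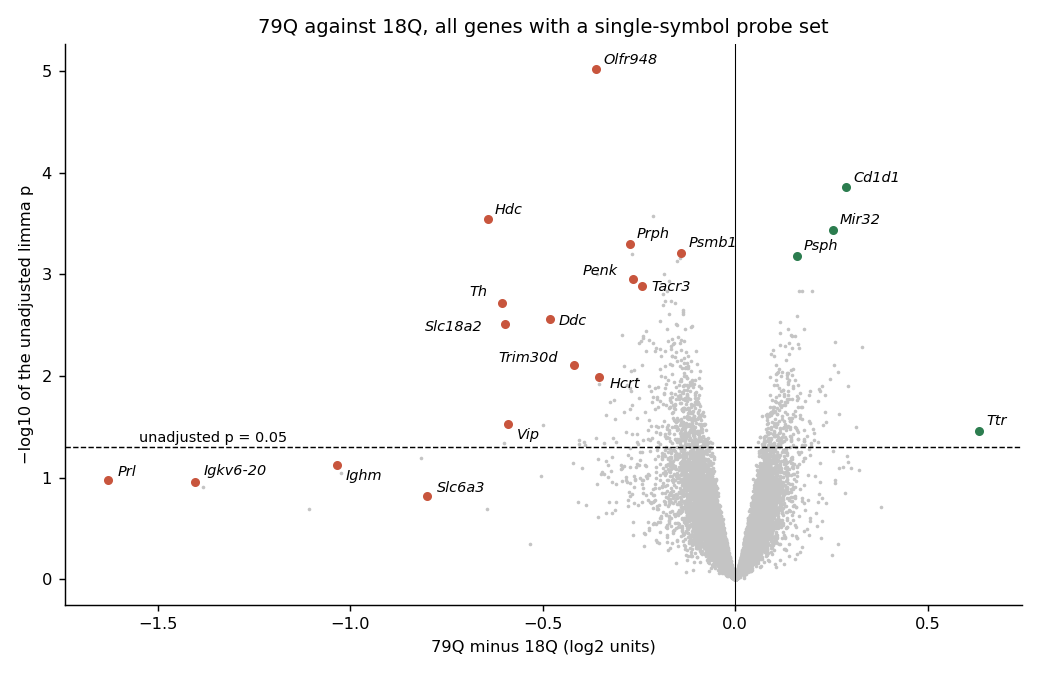
Each point is a gene, with the difference of 79Q minus 18Q in log2 units on the horizontal axis and -log10 of the unadjusted limma p on the vertical axis (dashed line at 0.05). Hdc, Th, Ddc and Slc18a2 stand apart to the left at differences of -0.64, -0.61, -0.48 and -0.60, whereas the widest differences, such as -1.63 for Prl, have higher p values.

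A pair of 18Q arrays bears on much of what follows. 18Q replicate 3 lay more than 0.5 log2 units above each of the other 17 AAV arrays in 21 genes and below them in 9, whereas each other injected array did so in at most 7 genes above and 2 below. The genes at the top were those of dopamine neurons of the midbrain, a region behind the hypothalamus. Slc6a3, the dopamine transporter, stood at 12.18 on this array and between 7.77 and 9.02 on the others. Chrna6, a nicotinic receptor subunit of these neurons, stood at 10.02 against at most 7.63, and En1, a midbrain transcription factor, at 7.65 against at most 6.78. At the bottom were Fezf1, a factor of the ventromedial hypothalamus, at 7.69 against at least 9.19, and Nr0b1 at 5.73 against at least 6.92. A list of 16 midbrain dopamine neuron markers, made after these values were seen, had a mean level of 8.96 on this array, 7.43 to 7.71 on the other 18Q arrays, 7.54 to 7.95 in 79Q and 7.40 to 7.72 in WT. The part of tissue outside the hypothalamus in this sample was not tested. 18Q replicate 6 differed in another way. Its mean level over 31 type I interferon response genes was 7.98, against 8.43 to 8.90 on the other 18Q arrays, 8.00 to 8.86 in 79Q and 6.86 to 6.90 in WT. Without 18Q replicate 3, 969 probe sets were higher and 1006 lower at an unadjusted p under 0.05, and without 18Q replicate 6, 669 were higher and 1344 lower. Among the 19937 genes, 596 were lower at that p without replicate 3 and 784 without replicate 6, against 513 with all arrays. Of the 776 genes at that p with all arrays, 519 (66.9%) were at it without replicate 3, where they made up 44.4% of 1170 genes, and 582 (75.0%) were at it without replicate 6, where they made up 50.2% of 1159. Of the 51 gene lists described below, the median difference turned its sign in 8 without replicate 3 and in 3 without replicate 6, and moved by over 1.5 times with its sign kept in a further 29 and 21. The number of members lower at that p moved by over 1.5 times in 26 and 21 lists. A list's count or median is therefore given without these arrays for many of the lists that moved in this way. A list given with all arrays only is not thereby shown to be stable. Each list count with all arrays stands beside 2.57% of all genes lower and 1.32% higher at that p. Without either array more of all genes were lower, so that a rise in a list's count is not by itself particular to that list.

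**Figure D2:**
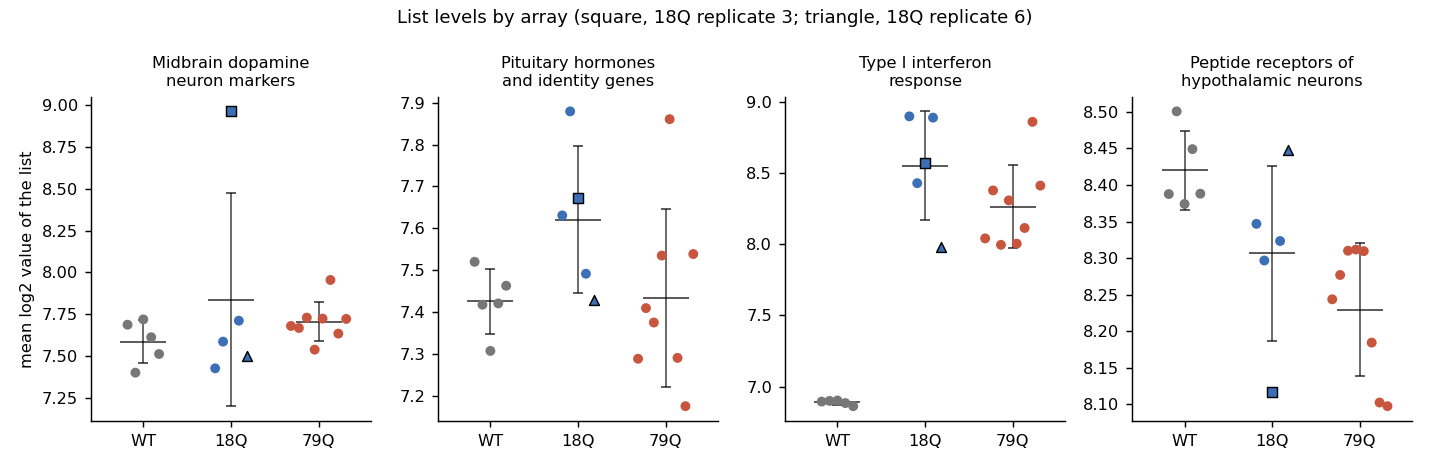
Each point is an array, with the mean log2 value of a gene list on the vertical axis and bars for the mean and SD of each group (WT, n = 5; 18Q, n = 5; 79Q, n = 8). The square is 18Q replicate 3, which stands at 8.96 for midbrain dopamine neuron markers, and the triangle is 18Q replicate 6, which stands at 7.98 for interferon response genes, the lowest of the 18Q arrays.

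Of 15 measured genes of monoamine synthesis and transport, 7 were lower in 79Q at that p (46.7%, against 2.57% of all genes) and none was higher, with a list median of -0.12 against -0.0070 for all genes. With 18Q replicate 3 left out, 5 were lower, 9 in place of 12 differences were below 0, and the median was -0.062. The mean level of the list lay between 7.81 and 8.00 in the 79Q arrays, between 8.02 and 8.61 in the 18Q arrays and between 8.06 and 8.11 in WT. The highest 79Q array, at 8.0035, and the lowest 18Q array, at 8.0217, nearly met. The list was chosen with earlier results of these data known, so that this separation is no evidence of a difference. The study had chosen Hdc, Th, Ddc and Slc18a2 from these same samples, so that their place in the list is no independent evidence of its direction.

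Hdc makes histamine, in the brain the messenger of the tuberomammillary neurons of the posterior hypothalamus, which keep the animal awake. Its log2 values in 18Q replicates 1, 2, 3, 4 and 6 were 9.02, 9.59, 9.31, 9.44 and 9.21, those in 79Q ran from 8.20 over a median of 8.65 to 9.28, and WT lay between 9.33 and 9.65. All 8 values of 79Q were below the 18Q mean, with 79Q replicate 5 alone, at 9.28, reaching into the 18Q range. The difference was -0.64 (SE 0.14, 95% interval -0.94 to -0.34), which puts the 79Q level at 64.0% of the 18Q level (limma p = 0.000289, exact permutation p = 0.00622). It was -0.64 without 18Q replicate 3, -0.67 without replicate 6 and -0.68 without both, and between -0.73 and -0.57 with any injected array left out. Against WT the difference was -0.17 in 18Q (adjusted p = 0.76) and -0.81 in 79Q (adjusted p = 0.0037), with the WT arrays shared by both. Hnmt, which breaks histamine down, differed by -0.031 between 79Q and 18Q, and Maob, which acts further along that pathway and on dopamine, by -0.12 (SE 0.054, limma p = 0.0387, exact permutation p = 0.0373).

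Th, the rate-limiting enzyme of dopamine synthesis, stood at 9.81, 9.77, 11.01, 9.71 and 9.95 in the 18Q arrays. In 79Q it ran from 9.12 over 9.45 to 9.75, and in WT from 9.70 to 10.04. The 11.01 belongs to 18Q replicate 3, and 79Q replicate 5 at 9.75 was above the lowest 18Q array. The difference was -0.61 (SE 0.17, limma p = 0.00193, exact permutation p = 0.00155), which became -0.37 without 18Q replicate 3 and -0.32 without replicates 3 and 6. Ddc, which turns L-DOPA into dopamine, differed by -0.48 (SE 0.14, limma p = 0.00276, exact permutation p = 0.0109), and by -0.32 without replicate 3. Slc18a2, the vesicular transporter that loads monoamines, had 9.30, 9.61, 10.65, 9.42 and 9.29 in 18Q and 8.67 to 9.30 in 79Q with a median of 9.10. It differed by -0.60 (SE 0.17, limma p = 0.00307, exact permutation p = 0.00155), and by -0.35 without replicate 3. The size of these 3 differences thus rested in part on that array, and each stayed below 0 with any injected array left out. Gch1, which makes the cofactor that Th needs, is dimmer and differed by -0.24 (SE 0.073, limma p = 0.0042, exact permutation p = 0.0163), with -0.23 without replicate 3.

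Slc6a3 takes dopamine back into the cell and is far higher in midbrain than in hypothalamic dopamine neurons. It had the widest difference of the list, -0.80 (SE 0.53, limma p = 0.150, exact permutation p = 0.163), and this came from 1 array: the 18Q values were 7.95, 8.05, 12.18, 8.19 and 7.80, and without 18Q replicate 3 the difference was 0.038. Slc10a4, a vesicle protein of the same neurons, went from -0.60 (SE 0.28) to -0.16, and Chrna6 from -0.11 to 0.54. The dopamine receptor Drd2, which stood at 10.87 on the same array against 10.13 to 10.21 on the other 18Q arrays, went from -0.22 (SE 0.10) to -0.083. The median of the 16 midbrain markers went from -0.068 to 0.12. Among other members of the monoamine list, which serve noradrenaline and serotonin, Dbh differed by -0.071, Tph2 by -0.019 and Slc6a2 by -0.046. Slc6a4 differed by -0.14 (SE 0.055) and was among the list's genes lower at an unadjusted p under 0.05.

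**Figure D3:**
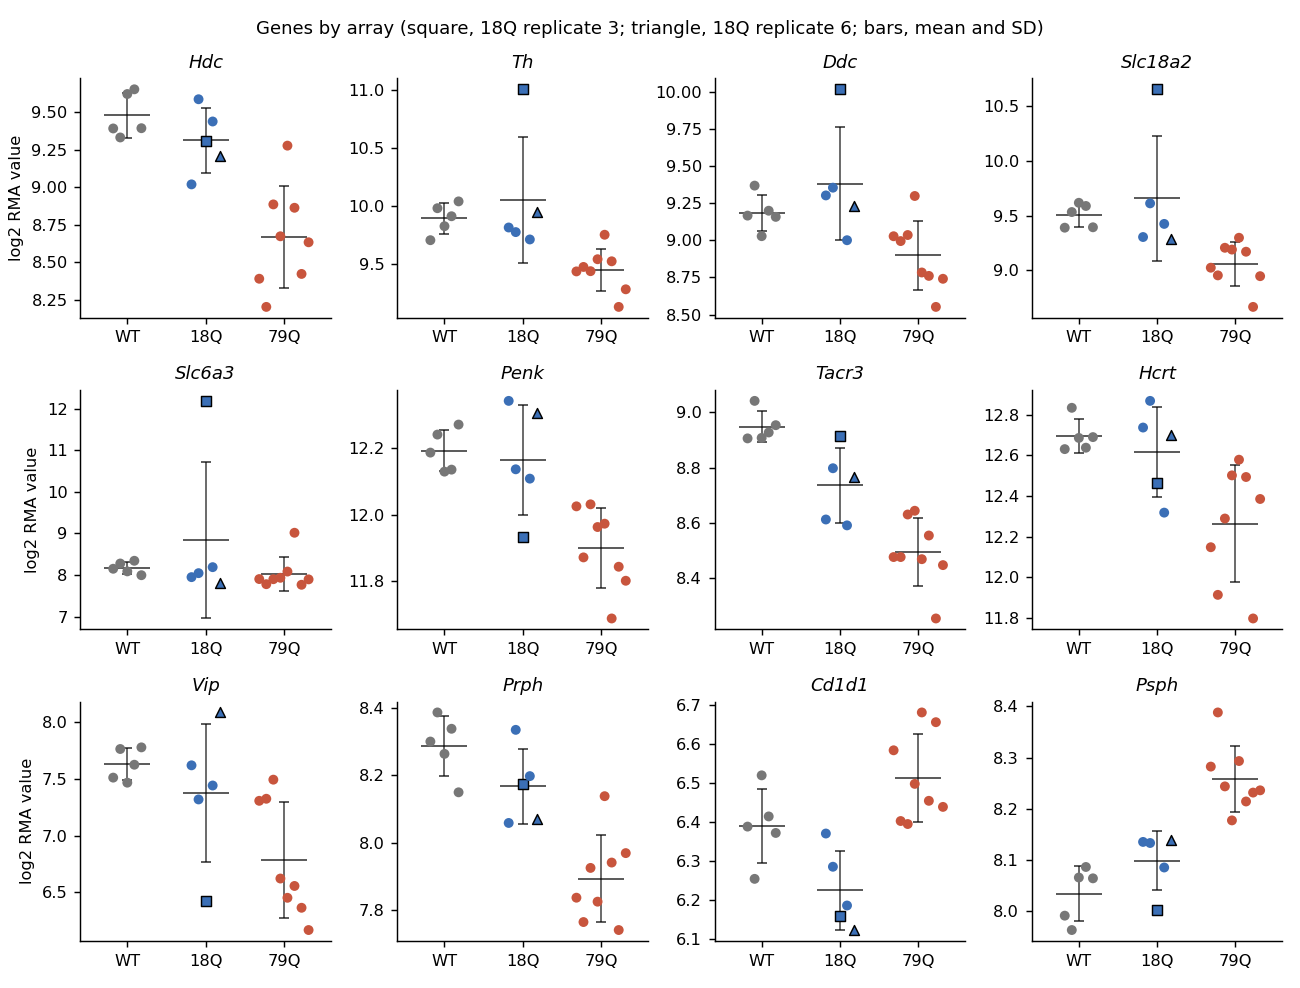
Each panel gives 1 gene, each point 1 array, with the log2 RMA value on the vertical axis (ranges differ between panels) and bars for the mean and SD (WT, n = 5; 18Q, n = 5; 79Q, n = 8). The square, 18Q replicate 3, sets the top of Th, Ddc, Slc18a2 and Slc6a3 but not of Hdc, and 79Q lies entirely above 18Q for Cd1d1 and Psph.

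The promoter of Th is shown because it carries, close to the start of transcription, the full cAMP response element TGACGTCA, the palindrome bound by CREB, in capitals here. The stretch runs 5′ to 3′ on the minus strand (GRCm38.p6, chr7:142899996-142900080, sequence from RefSeq), and the element begins 45 bases before the start.
Th: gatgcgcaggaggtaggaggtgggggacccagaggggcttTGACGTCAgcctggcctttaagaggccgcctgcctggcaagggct
The same letters, on either strand in the 250 bases before a start, were present in 2.33% of the 15613 measured genes with a promoter sequence. Of the genes lower in 79Q at an unadjusted p under 0.05, 5 of 404 had them (1.24%), and of those higher, 12 of 212 (5.66%). Among 13 monoamine genes with a sequence, Th alone did, and among 15 feeding peptide genes Cartpt. The count describes letters and not binding.

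Among peptides and their receptors, Penk, Hcrt, Tacr3 and Vip had been named by the study with values of these same samples in hand. Their differences are thus no independent evidence. For Hcrt, the study also cites its own earlier reports of lower levels with 79Q than with 18Q or in WT. Penk is the precursor of the enkephalins. Its values in 18Q were 12.34, 12.14, 11.93, 12.11 and 12.31, those in 79Q ran from 11.69 over 11.92 to 12.03, and WT lay between 12.13 and 12.27. All 8 were below the 18Q mean, and the only 18Q array inside the 79Q range was replicate 3. The difference was -0.26 (SE 0.068, 83.2% of the 18Q level, limma p = 0.00111, exact permutation p = 0.00699), and it was -0.32 without 18Q replicate 3. Against WT, Penk differed by -0.027 in 18Q (adjusted p = 0.94) and by -0.29 in 79Q (adjusted p = 0.030). Of the 8 opioid genes measured, Penk was the only one at an unadjusted p under 0.05, and the list median was -0.043. With 18Q replicate 3 set aside, 2 of the 8 were and the median was -0.12, and without replicate 6 the median was -0.011.

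Tacr3 is the receptor of neurokinin B, a peptide of the neurons that drive gonadotropin release. It had 8.61, 8.80, 8.91, 8.59 and 8.76 in 18Q, 8.25 to 8.64 in 79Q with a median of 8.48, and 8.91 to 9.04 in WT. The 79Q arrays overlapped the lowest 18Q arrays, and all 8 lay under the WT range. The difference was -0.24 (SE 0.063, limma p = 0.00129, exact permutation p = 0.00544) and stayed between -0.28 and -0.20 with any injected array left out. Against WT it was -0.21 in 18Q (adjusted p = 0.16) and -0.45 in 79Q (adjusted p = 0.00040). Over all 35 peptide and hormone receptors, 30 differences were below 0, against 55.4% of all genes, with a median of -0.077. At an unadjusted p under 0.05, 3 were lower (8.57%, against 2.57% of all genes) and none was higher. The others were Sstr1, a somatostatin receptor (-0.16, SE 0.070), and Brs3, an orphan receptor tied to energy balance (-0.26, SE 0.12). Mc4r, which restrains feeding, differed by -0.18 (SE 0.091). Without 18Q replicate 3, in which the mean level of this list was 8.12 against 8.30 to 8.45 in the other 18Q arrays, 12 receptors were lower at that p and the median was -0.13. Without replicate 6, the highest 18Q array for the list, 3 were and the median was -0.030. Without replicate 1 the count was 1.

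Among 15 feeding peptides, 2 were lower in 79Q at an unadjusted p under 0.05 (13.3%, against 2.57% of all genes) and the median was -0.10. Over the arrays other than 18Q replicate 3, 5 were lower with a median of -0.16, and without replicate 6, 3 were with a median of -0.067. Without replicate 1 the count was 1. Hcrt, the orexin precursor of the lateral hypothalamus, had 12.74, 12.87, 12.46, 12.32 and 12.70 in 18Q, 11.80 to 12.58 with a median of 12.34 in 79Q, and 12.63 to 12.83 in WT. The 79Q arrays reached lower, and the lowest 2 of the 18Q arrays lay inside their range. The difference was -0.35 (SE 0.12, limma p = 0.0103, exact permutation p = 0.042). Tac1, the precursor of substance P, differed by -0.15 (SE 0.065), Gal, galanin, by -0.27 (SE 0.13), Cartpt by -0.21 (SE 0.14), and Npvf by -0.22 (SE 0.13). Pmch, made by neurons beside those of Hcrt, differed by -0.15 (95% interval -0.41 to 0.10). Pomc differed by 0.0058 (-0.25 to 0.27), and Npy by -0.20 (-0.72 to 0.31). The intervals for Npy and Pmch hold both 0 and the difference of Hcrt, so that these genes are not shown to differ from Hcrt or from no change. Gal differed by -0.39 and Npy by -0.48 without 18Q replicate 3, and without replicate 6 Gal differed by -0.15 and Cartpt by -0.12. None of the 15 genes of magnocellular and releasing hormones was at an unadjusted p under 0.05, with Ghrh at -0.30 (SE 0.16), Avp at 0.11 and Oxt at 0.13. The SE of both Avp and Oxt was 0.33, with 18Q replicate 3 the lowest of the 5 arrays for each. Without that array Avp differed by -0.29, Oxt by -0.20 and Ghrh by -0.49, and 3 of the 15 genes were lower at that p.

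Vip, a peptide of the suprachiasmatic nucleus that couples its clock neurons, stood at 7.62, 7.32, 6.42, 7.44 and 8.09 in 18Q. In 79Q it ran from 6.17 over a median of 6.59 to 7.49, and WT lay between 7.47 and 7.78. In 79Q, replicates 1, 2 and 3 lay between 7.31 and 7.49 and the other 5 arrays at or below 6.62, and 18Q replicate 3 lay with the lower ones. The difference was -0.59 (SE 0.25, limma p = 0.0297, exact permutation p = 0.0987). Both arrays that stand apart acted on it in opposite ways: it was -0.83 without 18Q replicate 3 and -0.41 without replicate 6. Prok2, the output peptide of the same nucleus, differed by -0.19 (SE 0.072), Rorb, a nuclear receptor there, by -0.097 (SE 0.039), Grp by -0.22 (SE 0.11) and Nms by -0.32 (SE 0.16). In all, 3 of 14 suprachiasmatic genes were lower at an unadjusted p under 0.05 (21.4%, against 2.57% of all genes). The count was 6 without replicate 3, with a median of -0.20 in place of -0.10, and 0 without replicate 6, where Prok2 differed by -0.12 and Grp by -0.10. Of 15 clock genes found in most cells, Per2 was the single one at that p (-0.12, SE 0.054).

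Genes that most neurons use had a median near 0. Of 19 synaptic and filament genes, 2 were lower, none was higher at an unadjusted p under 0.05, and the median was 0.0081. The 2 were Prph and Sv2c. Prph, peripherin, is a neurofilament of neurons with long peripheral axons, which in the hypothalamus is known from few cells. Its values were 8.06, 8.33, 8.17, 8.20 and 8.07 in 18Q and ran from 7.74 over 7.88 to 8.14 in 79Q, with 79Q replicate 5 alone above the lowest 18Q array. It differed by -0.27 (SE 0.065, limma p = 0.000501, exact permutation p = 0.00466), with -0.27 without 18Q replicate 3 and -0.30 without replicate 6. Sv2c, a synaptic vesicle protein that is high in dopamine neurons, differed by -0.29 (SE 0.097, limma p = 0.00805, exact permutation p = 0.0109), and by -0.17 without 18Q replicate 3, where it stood at 10.09 against 9.41 to 9.59 in the others. Of 12 genes of GABA and glutamate neurons, 2 were lower (16.7%, against 2.57% of all genes): Gad1, which makes GABA, by -0.13 (SE 0.049), and the receptor subunit Gabrb1 by -0.11 (SE 0.046). The count was 5 of 12 without 18Q replicate 3, 1 without replicate 6 or with centred arrays, and 0 without replicate 1.

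Of 25 transcription factors of hypothalamic neurons, 1 was higher and none lower at an unadjusted p under 0.05, with a median of -0.044. Without 18Q replicate 3, 2 were higher and 6 lower with a median of -0.073, and without replicates 3 and 6 together 3 were lower. The higher one over all arrays was Nhlh2, which is needed for gonadotropin neurons and energy balance (0.16, SE 0.061). A list of 22 genes that other studies found lowered by expanded huntingtin in the striatum had 3 lower (Penk, Tac1 and Drd2, described above) and 1 higher, with a median of -0.024. When 18Q replicate 3 was left out, 4 were higher. The higher one over all arrays was Hpca, hippocalcin, a calcium sensor, with a difference of 0.14 (SE 0.049, limma p = 0.011, exact permutation p = 0.0155), and 0.22 without 18Q replicates 3 and 6.

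**Figure D4:**
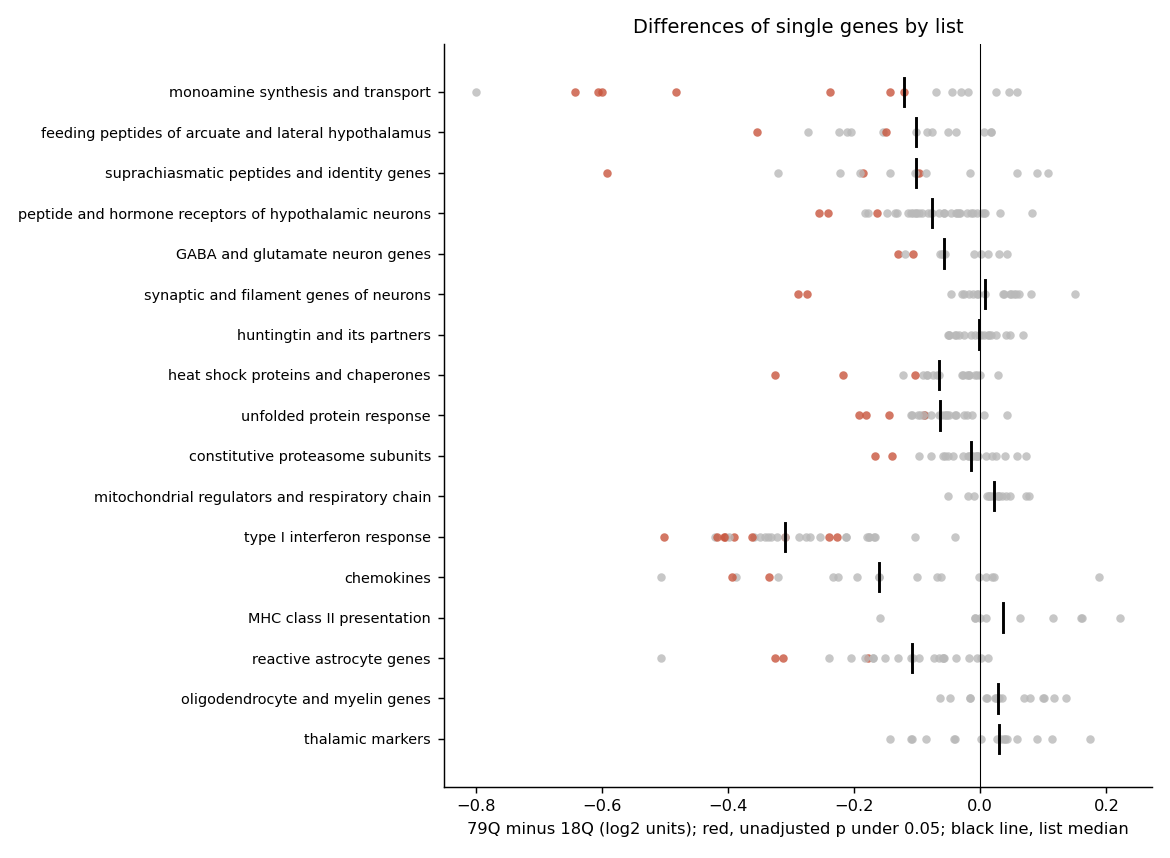
Each point is a gene of a list, with its difference of 79Q minus 18Q in log2 units on the horizontal axis (red, unadjusted p under 0.05; black line, list median). Monoamine genes reach -0.80, all 31 interferon response genes lie below 0, and huntingtin and its partners lie within 0.068 of 0.

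The genes tied to huntingtin itself differed little. The probe set for mouse Htt stood at 10.30, 10.36, 10.28, 10.34 and 10.22 in 18Q and had a median of 10.33 in 79Q, with a difference of 0.024 (SE 0.031, 95% interval -0.041 to 0.090). Whether its probes also read the human fragment was not tested. Across 19 genes, Htt and partners of huntingtin that move vesicles along microtubules or take up membrane, no gene was at an unadjusted p under 0.05, differences ran from -0.052 to 0.068, and the median was -0.0021.

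Most chaperones and genes of the unfolded protein response had differences below 0, few of them past an unadjusted p of 0.05. Of all genes, 55.4% had a difference below 0 and 2.57% were lower at that p. Of 19 heat shock proteins and chaperones, 3 were lower at an unadjusted p under 0.05, 18 of the differences were below 0, and the median was -0.066. With each array centred on its own median, 15 of the 19 were below 0. With any 1 array left out, 0 to 4 were lower, with 0 without 18Q replicate 2. Hspb1, a small heat shock protein found also in reactive astrocytes, differed by -0.33 (SE 0.13, limma p = 0.0181, exact permutation p = 0.049), with 9.29, 9.49, 9.47, 9.09 and 9.25 in 18Q and 8.54 to 9.35 in 79Q. Hspa1a, the inducible Hsp70, differed by -0.22 (SE 0.093) and the mitochondrial Hspd1 by -0.10 (SE 0.038). Of 24 genes of the unfolded protein response, 4 were lower, none was higher, and the median was -0.064. Of their differences 22 were below 0, also with centred arrays. When any 1 array was left out, 2 to 7 were lower, with 7 without 18Q replicate 6 and 2 without 79Q replicate 3. Pdia4, which forms disulfide bonds, differed by -0.14 (SE 0.045, limma p = 0.00475, exact permutation p = 0.00932), and Creld2, a stress-induced protein of the same compartment, by -0.19 (SE 0.062, limma p = 0.00633, exact permutation p = 0.0171). The others were Dnajc3 at -0.089 and Atf3 at -0.18. Against WT, Creld2 was 0.35 higher in 18Q (adjusted p = 0.0083) and 0.16 higher in 79Q (adjusted p = 0.25). No gene of autophagy and lysosomes (17 measured), of mitochondrial regulators and the respiratory chain (17) or of DNA damage and p53 targets (16) was at that p, with medians of 0.016, 0.022 and 0.052.

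Psmb1 is a beta subunit of the proteasome core. It had 10.45, 10.43, 10.49, 10.50 and 10.57 in 18Q and 10.29 to 10.41 in 79Q with a median of 10.34, and the groups did not overlap. The difference was small, -0.14 (SE 0.034, 95% interval -0.21 to -0.069, limma p = 0.000612), and its exact permutation p was 0.000777, the smallest that 1287 splits of 13 arrays allow. Psma6, an alpha subunit, differed by -0.17 (SE 0.062). The other 22 of the 24 subunits were not at an unadjusted p under 0.05, and the median of all was -0.014.

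Psph makes serine, the precursor of glycine and of the co-agonist D-serine, and was higher in 79Q. Its values were 8.13, 8.13, 8.00, 8.09 and 8.14 in 18Q, 8.18 to 8.39 in 79Q with a median of 8.24, and 7.96 to 8.09 in WT. Every 79Q array was above every 18Q and WT array. The difference was 0.16 (SE 0.039, 95% interval 0.078 to 0.24, limma p = 0.000658, exact permutation p = 0.000777). Against WT it was 0.065 in 18Q (adjusted p = 0.60) and 0.22 in 79Q (adjusted p = 0.0030). Among the 13 genes of serine and amino acid synthesis, 2 were lower at an unadjusted p under 0.05: Gpt2, an alanine transaminase, differed by -0.15 (SE 0.045) and Slc7a11, the cystine transporter, by -0.14 (SE 0.055).

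Type I interferon response genes, a defence of cells that meet viral nucleic acid, were high in both injected groups, with 79Q averaging below 18Q. Against WT, 30 of 31 passed an adjusted p of 0.05 as higher in 18Q (2.47% of all genes did, and 0.431% as lower) and 27 of 31 in 79Q (2.02%, and 0.722% as lower). Between 79Q and 18Q, all 31 differences were below 0, from -0.50 to -0.040 with a median of -0.31. At an unadjusted p under 0.05, 9 were lower (29%, against 2.57% of all genes). This count depended on 18Q replicate 6: it was 26 without it, with a median of -0.44, and 1 without 18Q replicate 1. It was 5 without 18Q replicate 3. In a fit to the 13 injected arrays alone, which leaves out the narrow spread of WT, it was 2. The groups overlapped over nearly their whole range, and 79Q replicate 7, at a mean of 8.86, lay with the highest 18Q arrays. Trim30a, an interferon-induced regulator of Toll-like receptor signals, had 9.66, 8.99, 9.25, 9.76 and 8.42 in 18Q and 8.31 to 9.52 in 79Q. It differed by -0.50 (SE 0.21, limma p = 0.0303, exact permutation p = 0.0847) and by -0.70 without replicate 6. Its neighbour Trim30d differed by -0.42 (SE 0.14, limma p = 0.00783, exact permutation p = 0.0303). Bst2, tetherin, differed by -0.23 (SE 0.099), Parp14 by -0.36 (SE 0.16), and Ifit1, which binds viral RNA, by -0.42 (SE 0.22).

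Promoter stretches of 3 of these genes are shown for the letters GAAA, any 2 bases and GAAA again, the core of the interferon-stimulated response element, in capitals on whichever strand holds them. Among the interferon list, 9 of 20 genes with a promoter sequence held it in the 250 bases before the start (45%), against 3.40% of measured genes. Of genes lower in 79Q at an unadjusted p under 0.05, 16 of 404 held it (3.96%), and of those higher, 6 of 212 (2.83%). The sequences are from RefSeq on GRCm38.p6, 5′ to 3′ on the strand of the gene: Trim30a at chr7:104465194-104465269 (minus), Trim30d at chr7:104507850-104507930 (minus) and Ifit1 at chr19:34640745-34640853 (plus, with the motif at 2 places).
Trim30a: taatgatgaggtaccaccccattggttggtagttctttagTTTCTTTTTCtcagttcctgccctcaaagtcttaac
Trim30d: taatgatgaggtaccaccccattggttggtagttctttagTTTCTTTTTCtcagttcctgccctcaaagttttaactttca
Ifit1: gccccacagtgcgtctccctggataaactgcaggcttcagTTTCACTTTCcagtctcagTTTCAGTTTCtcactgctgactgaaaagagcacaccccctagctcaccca
The stretches of Trim30a and Trim30d are nearly the same, as are the genes, and their probe sets may share RNA, so that the 2 differences are not independent.

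Other immune genes differed less or varied more between mice. Of 18 chemokines, 2 were lower at an unadjusted p under 0.05 (11.1%, against 2.57% of all genes), with a list median of -0.16. These were Ccl12 at -0.34 (SE 0.14) and Cxcl11 at -0.39 (SE 0.18). Without 18Q replicate 6, 7 were lower with a median of -0.25, and without replicate 3, 1 was with a median of -0.088. Without replicate 1, 0 were lower at that p. Cxcl10, which draws T cells, stood at 11.63, 10.77, 11.20, 11.57 and 9.59 in 18Q, the last of them 18Q replicate 6, at 9.96 to 11.39 in 79Q, and at 6.90 to 7.2 in WT. It differed by -0.51 (95% interval -1.11 to 0.098), and by -0.85 without replicate 6. Cxcl13, which draws B cells, differed by -0.39 (-0.98 to 0.20), and Tlr7, a sensor of viral RNA, by -0.34 (SE 0.16). Reactive astrocyte genes had 3 of 24 lower (12.5%), with Gfap at -0.31 (SE 0.13) and Lcn2 at -0.18 (SE 0.077) beside Hspb1. The count was 10 of 24 without replicate 6 and 1 without replicate 3. Tmem119, a marker of resident microglia, differed by -0.28 (SE 0.12), the single one of 24 microglia and macrophage markers at that p. Without replicate 3 the count was 0 and the list median -0.025 in place of -0.084, and without replicate 6 the count was 2. No MHC class II gene of 10 (median 0.036), complement gene of 15 (-0.13), T or NK cell marker of 22 (-0.070) or B and plasma cell marker of 17 (-0.096) was at that p. Without 18Q replicate 6, 4 complement genes were lower (median -0.26), 3 T or NK cell markers and 1 B or plasma cell marker were, and the MHC class II median turned to -0.027. With any 1 array left out, up to 4 B and plasma cell markers were lower.

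Cd1d1, which presents lipids to NKT cells, was the gene higher in 79Q with the smallest p. It had 6.37, 6.29, 6.16, 6.19 and 6.12 in 18Q, 6.40 to 6.68 in 79Q with a median of 6.48, and 6.25 to 6.52 in WT. Thus 79Q lay above 18Q without overlap, and WT overlapped both. The difference was 0.29 (SE 0.060, 95% interval 0.16 to 0.41, limma p = 0.000138, exact permutation p = 0.000777), which puts the 79Q level at 122% of the 18Q level. It was 0.27 without 18Q replicate 3 and 0.26 without replicate 6. Cd1d1 has a near-identical neighbour, Cd1d2, and signal from the 2 genes was not told apart here. In the same list of 13 MHC class I genes, Psme2, a proteasome activator subunit, was lower (-0.20, SE 0.095).

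The other genes with the smallest p were mixed. Lower in 79Q were Olfr948 (-0.36), Trp53rkb (-0.21), Vmn2r66 (-0.27), the mitochondrial ribosome protein Mrps6 (-0.14), Taar7d (-0.15), the matrix proteoglycan Vcan (-0.18) and the small nucleolar RNA Snord14e (-0.36). Higher were Mir32 (0.25), Dus2 (0.17), Olfr1163 (0.20), Ky (0.16), Olfr203 (0.16), Cog7 (0.12), 4930433N12Rik (0.18) and Ddx55 (0.14). Olfr948, an odorant receptor gene, stood at 3.58, 3.45, 3.26, 3.50 and 3.65 in 18Q and 2.99 to 3.24 in 79Q, where the median of an array was about 7.41, so that it lay among the dimmest probe sets. It was past an adjusted p of 0.05 without 18Q replicate 3 (-0.42, adjusted p = 0.0144 by limma). Of the 20 genes that had the smallest p in either direction, 10 had a mean below the median probe set, among them odorant, vomeronasal and trace amine receptors.

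Mir32 is a microRNA in an intron of Tmem245. Its hairpin probe set had 5.98, 6.02, 5.72, 5.88 and 5.90 in 18Q and 6.0 to 6.27 in 79Q, with only 18Q replicate 2 inside the 79Q range. The difference was 0.25 (SE 0.058, limma p = 0.000363, exact permutation p = 0.00155), and that of Tmem245 was 0.032 (SE 0.051, limma p = 0.537, exact permutation p = 0.556). The array reads a precursor and not the mature strand, which is given from RefSeq (GRCm38.p6, chr4:56895272-56895293, minus strand) with the seed, bases 2 to 8, in capitals.
mmu-miR-32-5p: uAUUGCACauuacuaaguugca

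The widest differences had large spreads and belong to genes that were very high in a few mice. Prl, prolactin, a hormone of the pituitary below the hypothalamus, stood at 10.23, 11.12, 11.76, 6.75 and 6.32 in 18Q and at 5.94 to 10.52 in 79Q, with a difference of -1.63 (SE 0.95, limma p = 0.104, exact permutation p = 0.169). Gh, growth hormone, was high in the same 3 arrays of 18Q (9.06, 9.52 and 10.44, against 7.04 and 7.11) and differed by -1.02 (SE 0.57). Of 20 pituitary genes, Dlk1 was the single one at an unadjusted p under 0.05 (-0.14, SE 0.065), and the list median was -0.030. The differences of Prl and Gh were -0.998 and -0.57 without 18Q replicate 3, and without replicate 6 they were -2.36 and -1.40. Immunoglobulin chains varied over several log2 units within each group: Igkv6-20 differed by -1.40 (SE 0.83), Igkv10-96 by -1.38 (SE 0.86), Igkv19-93 by -1.11 (SE 0.84) and Ighm by -1.04 (SE 0.55). Igkv10-96 differed by -0.56 without 18Q replicate 3, and with any 1 array left out Igkv19-93 ran from -1.83 to -0.66 and Ighm from -1.51 to -0.65. On the higher side, Ttr, which carries thyroid hormone and is made by the choroid plexus, differed by 0.63 (SE 0.28, limma p = 0.0344, exact permutation p = 0.0435). Its 18Q values were 8.84, 8.78, 8.76, 7.24 and 8.30, and without replicate 4, the 7.24, the difference was 0.35. Next came Cpne9 (0.38, SE 0.28), Nipa1 (0.33, SE 0.10), Gm7982 (0.32, SE 0.18) and Olfr591 (0.31, SE 0.13).

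**Figure D5:**
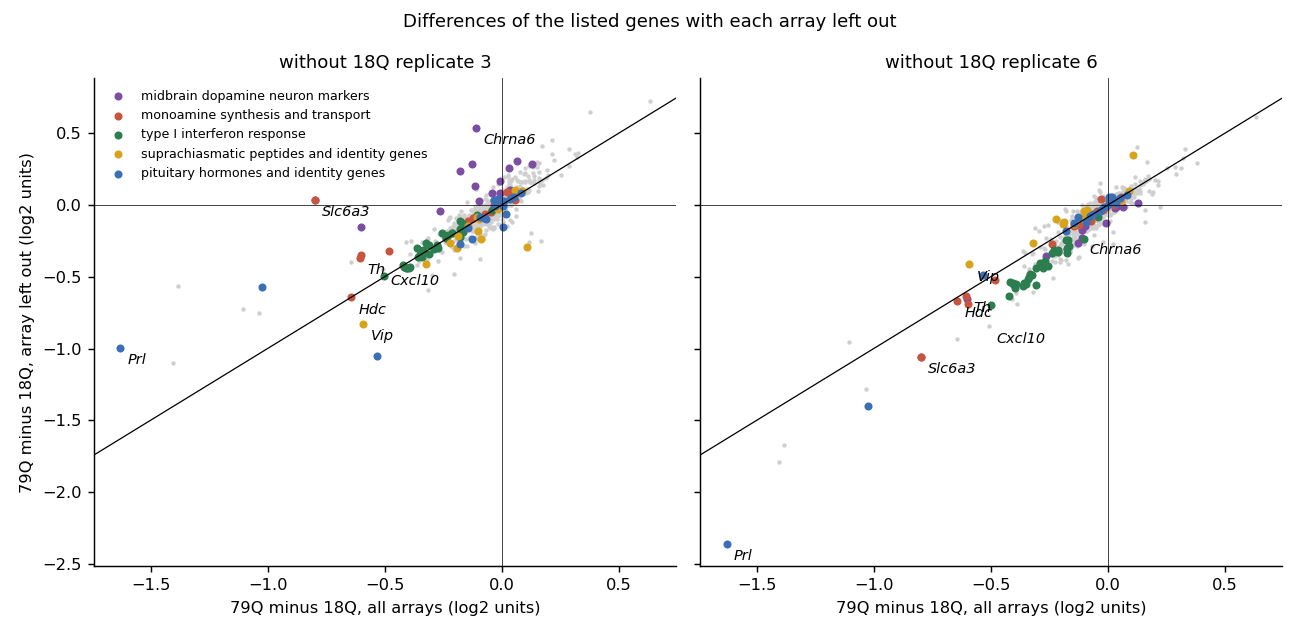
Each point is a listed gene, with the difference of 79Q minus 18Q over all arrays on the horizontal axis and with 1 array of 18Q left out on the vertical axis, both in log2 units (black diagonal, equal values). Without 18Q replicate 3, midbrain genes move upward (Slc6a3 from -0.80 to 0.038) and Hdc stays at -0.64, and without 18Q replicate 6, interferon genes lie below the diagonal.

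Markers of other cells and of neighbouring tissue are given for the same arrays. None of 17 oligodendrocyte and myelin genes was at an unadjusted p under 0.05, but their mean level in 18Q ran from 10.25 to 10.95 and in 79Q from 10.23 to 10.70, and the median difference went from 0.028 to 0.14 without 18Q replicate 3, where 3 were higher. None of 16 thalamic markers was at that p (median 0.030, levels of 9.0 to 9.45 in 18Q and 8.97 to 9.38 in 79Q), nor of 13 cortical and hippocampal markers (median -0.0013). Of 14 astrocyte markers, 3 were lower (Gjb6, Agt and Sox9), and of 12 tanycyte and ependymal markers, 3 (Vcan, Crym and Col23a1). These shares are 21.4% and 25%, against 2.57% of all genes. Without 18Q replicate 3, 1 astrocyte marker was lower and 2 were higher. In that setting 5 tanycyte and ependymal markers were lower, with a median of -0.11 in place of -0.046. Endothelial and barrier genes (20 measured) had a median of -0.064 and none at that p, but 4 that were lower without 18Q replicate 6. Their part in the differences of neuronal genes was not tested. Of 20 immediate early genes, 3 were lower (Jun at -0.13, Egr2 at -0.18 and Nr4a3 at -0.32), with a median of -0.094, and 0 were without 18Q replicate 1. No gene of cholesterol synthesis (20) or fatty acid metabolism (19) was at that p.

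Lists not yet described are given by their count at an unadjusted p under 0.05 and their median. Of 14 receptors for dopamine, histamine and serotonin, Drd2 was the single one (median -0.018). Among signalling genes, 2 of 27 cytokines and receptors were lower (median -0.095), namely Ifngr1 at -0.17 (SE 0.061) and Ifnar2 at -0.10 (SE 0.047), which receive interferon. The count was 8 without 18Q replicate 6. Tlr7 was the single one of 19 Toll-like receptors and partners (median -0.084), and Il6st of 15 JAK-STAT genes (median -0.065), with 4 and 3 without replicate 6. The 10 interferon gamma GTPases had none (median -0.12), nor had 21 markers of disease-associated microglia (-0.047), 17 of pericytes, fibroblasts and meninges (-0.031) or 8 of the ventromedial hypothalamus (0.041). The last of these medians turned to -0.094 without 18Q replicate 3, with 2 of the 8 lower, and to -0.11 without replicates 3 and 6, and that of pericyte and related markers turned to 0.0080 with 2 higher. Without replicate 6, the median of the interferon gamma GTPases was -0.31 and 3 markers of disease-associated microglia were lower. Of 8 oligodendrocyte precursor markers Gpr17 and Vcan were lower (median -0.046), of 16 glucocorticoid-responsive genes Lcn2 and Map3k6 (-0.059), and of 12 choroid plexus markers Slc4a5 was lower and Ttr higher (0.0074). Without replicate 3 the precursor median turned to 0.012 and none of the glucocorticoid-responsive genes was lower. Of the 22 genes that the published text names for the AAV groups, 11 were lower and none was higher, with a median of -0.35. The study named them with values of these samples in hand, so that the count is no independent evidence.

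The named genes can be set beside BACHD mice, which carry a full-length human HTT with 97 CAG repeats in all tissues and were compared with WT littermates at 2 months (6 and 6) and 10 months (5 and 3). These arrays share no sample with the comparison above. No gene passed an adjusted p of 0.05 at either age (0%). Of the 50 genes named by rank, size or the published text, 2 were lower in BACHD at an unadjusted p under 0.05 at 2 months (2.21% of all genes were) and none was higher (0.632%). At 10 months 8 were lower (1.55%) and 4 were higher (2.39%). Tacr3 was lower in BACHD at an unadjusted p under 0.05 at both ages. At 2 months its values were between 8.31 and 8.54 in BACHD and between 8.51 and 9.03 in WT, with a difference of -0.40 (SE 0.084, adjusted p = 0.939 by limma). At 10 months it differed by -0.60 (SE 0.11, adjusted p = 0.997), with 8.305 to 8.759 in BACHD and 9.063 to 9.367 in WT. How many of all genes separate with 5 against 3 arrays was not counted, so that this separation is not read as rare. At 10 months Penk differed by -0.25 (SE 0.073), Hcrt by -0.28 (SE 0.068), Hdc by -0.44 (SE 0.17), Slc18a2 by -0.26 (SE 0.084), Th by -0.21 (SE 0.085), Sv2c by -0.20 (SE 0.063) and Vcan by -0.13 (SE 0.057). Prph differed by -0.16 (SE 0.10), and Ddc by 0.00077. The 4 that were higher included Cxcl13 (0.39) and Tlr7 (0.15), whose differences between 79Q and 18Q were -0.39 and -0.34, and also Nms (0.37) and Olfr591 (0.33).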

How the data were processed

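Hypothalamic RNA of each mouse was hybridised to 1 Affymetrix Mouse Gene ST 1.0 array. Per the labels and the study's methods, the authors read the arrays with affy 1.70.0 in R 4.1.1, normalised them by RMA (background correction, quantile scaling and summary of the probes of a set) and deposited log2 values, used here unchanged. Samples of low RNA integrity had been left out by the authors. RMA was run on several arrays at once, so that levels were compared within the AAV set and within each BACHD age only.

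Values were tested with limma 3.58.1 in R 4.3.3 (lmFit, contrasts.fit, eBayes) over the 18 AAV arrays with 1 mean per group, with Benjamini-Hochberg adjustment over 34760 probe sets. A "limma p" is unadjusted and two-sided. A single gene also got an exact two-sided permutation test over the 1287 splits of 13 arrays. With 1 array per mouse, the p-values set a difference against the spread between mice. For limma this spread includes that of the WT mice, and for the permutation test only that of the 13 injected mice. Precision is bounded by how many mice there are. The median SE of a gene was 0.055 log2 units. Of the probe sets, 21640 had 1 gene symbol, 1321 had several and 11799 had none in the table used. A gene was its single-symbol probe set with the highest mean over the 13 arrays. The code was tested on simulated data.

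Named genes were those of the published text, the 10 with the smallest p and the 5 with the largest difference in each direction, and 2 to 4 members of each list with the smallest p. Genes outside this rule were chosen with their values known. The comparison, its members and the 51 lists (820 of 904 members measured) were chosen with earlier results of these data known, 2 of the lists after the values of 18Q replicate 3 were seen. Alternatives were the injected arrays alone, a replicate block, the brighter probe sets, centred arrays, a trended and robust eBayes, array weights and arrays left out. Promoter and miRNA sequences are from RefSeq (GRCm38.p6).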

Additional observations from a re-analysis of the deposited data

Results flagged for a closer look

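In 82 named genes, the highest or lowest array of 18Q and of 79Q was compared with its own group by Dixon's ratio. Of 164 pairs of gene and group, 14 had an array apart from its group. The genes include midbrain markers listed after the values of 18Q replicate 3 were seen, so that the count cannot be set against a chance rate. In 18Q, 6 of 8 such values were those of replicate 3: Slc6a3 at 12.18 (next array 8.19), Th at 11.01 (9.95), Drd2 at 10.87 (10.21), Slc18a2 at 10.65 (9.61), Sv2c at 10.09 (9.59) and Slc10a4 at 9.976 (7.975). The others were low values of 18Q replicate 6, in Parp14 at 7.367 (8.252) and in Vcan at 9.138 (9.274). In 79Q, replicate 7 was apart on the high side in Cxcl13 at 12.13 (11.27), Igkv10-96 at 9.707 (5.562), Parp14 at 8.416 (7.918) and Trim30d at 5.978 (5.463). Slc6a3 was high in 79Q replicate 6 at 9.016 (8.084), and Maob was low in 79Q replicate 2 at 9.735 (9.944).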

How the results depend on the processing

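Of 2111 values of 82 named genes under up to 26 alternatives, 2106 kept their direction and their side of an adjusted p of 0.05, 4 in 3 genes changed sign and 1 passed the threshold (Olfr948 without 18Q replicate 3). No gene passed with all arrays, and many of these genes were chosen for a small p or a wide difference. A kept side and sign were thus likely beforehand and do not measure stability. Over all 841 named or listed genes the sign turned in 120 without 18Q replicate 3 (11 of them with a difference over 0.1 in size, among them Chrna6, Fezf1, Nr0b1, Avp and Oxt), in 78 without replicate 6 and in 131 without both. List medians turned their sign in 8, 3 and 8 of 51 lists. The number of probe sets past an adjusted p of 0.05 (0) and those higher (552) and lower (923) at an unadjusted p under 0.05 became 0, 330 and 546 with the brighter probe sets alone, 0, 846 and 1155 with array weights, and 1, 1070 and 1213 without 18Q replicates 3 and 6. With the 13 injected arrays alone, without WT, they became 0, 488 and 766. In that fit the 1 lower member of the Toll-like receptor, JAK-STAT, microglia and monoamine receptor lists became 0 in each. With 1 array left out, the number past an adjusted p of 0.05 ran from 0 to 1, the higher from 452 to 969 and the lower from 705 to 1344. A probe set passed without 18Q replicate 3 (Olfr948), and, with no single gene named by it, without 18Q replicate 2, without 79Q replicate 5 and without 18Q replicates 3 and 6. Slc6a3 ran from -1.06 to 0.038 and Stoml3 from -0.17 to 0.11 with 1 array left out, and Htt was -0.0076 without 18Q replicates 3 and 6. In BACHD mice at 2 months, Slc18a2 ran from -0.18 to 0.026 and Th from -0.030 to 0.099 with 1 array left out. With the replicate number as a block, 628 were higher, 903 lower and 0 passed. Arrays of equal number shared only a number: their deviations correlated at -0.25 to 0.095, and none correlated best with its own. The brighter probe sets test fewer features, and the cause of the other shifts was not tested. Limits are the 5 arrays of 18Q, 2 of which stand apart, and dim probe sets: 10 of the 20 genes with the smallest p lay below the array median.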
